A study of Mus musculus with 2 samples.

Results

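The 10 genes described here encode S100 calcium-binding proteins. They are S100a1, S100a4, S100a6, S100a8, S100a9, S100a10, S100a11, S100a13, S100a14 and S100b, matched by symbol among the 23562 genes of the deposited table, and all 10 were present. They were selected on the measured differences in RPKM between these same libraries, so their values are a description and no test is given. The cells were of a mouse mammary tumour line that the labels name AS0574. The first form was Rnf8-/-;Trp53Δ/Δ, and the second was labelled as the same line and Rnf8-/-;Trp53Δ/Δ genotype with Rnf8 put back (Rnf8-complemented), so both labels carry the Trp53 deletion. The forms are called null and complemented cells below, and each was sequenced as 1 RNA library, without replicates. Whether either form was a single clone, and the vector that carried Rnf8, is not stated in the sources. The comparison asks how cells lacking Rnf8, a ubiquitin ligase of the DNA break response, differ from cells with Rnf8 put back.

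S100 proteins are small EF-hand proteins that mostly act as dimers. On binding calcium they expose a surface that grips a target protein, such as an annexin, a myosin heavy chain or a ubiquitin ligase adaptor. Several are also released from cells and act on the receptors Ager (RAGE) and Tlr4, and some members are known to be abundant in inflamed or tumour epithelia.

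Sequencing depth was 57263401 counted reads for the null cells and 48607808 for the complemented cells. Levels are given as RPKM (reads per kilobase of gene, scaled by the total of counted reads), and brackets hold exact 95% limits that cover counting error only, with no spread between cultures. Where a pair of values is given, the null cells come first. Rnf8 stood at 10.5 RPKM in the null and 596 RPKM in the complemented cells. The labelled cell type was checked on 8 mammary epithelial markers (Krt5, Krt7, Krt8, Krt14, Krt18, Krt19, Epcam and Cdh1). Summed over the 8 genes they reached 5580.4 RPKM in the null cells and 1.19 RPKM in the complemented cells, where Krt5 had 0 reads and the highest marker stood at 0.335 RPKM. The 9 mesenchymal and fibroblast markers summed to 381 and 1569 RPKM, and 6 of them had a mean of at least 1 RPKM. Of those 6, 5 passed a 2-fold rule as lower in the null cells and 0 as higher. Over all genes with a mean of at least 1 RPKM, 15.9% were lower and 14.8% higher by that rule. Vim, which lay within 2-fold at 376 and 725 RPKM, made up most of the null sum, and the other 8 markers summed to 4.97 and 844 RPKM. Sparc alone stood at 3.56 and 632 RPKM. Col1a2 (0.0401 and 1.77 RPKM), Pdgfra (0.101 and 0.0596) and Thy1 (0.0101 and 0.0949) had a mean below 1 RPKM. The defining epithelial markers were thus at or near 0 in the complemented cells. These markers moved with the S100 differences below, and their part in them was not tested. With 1 library of each form, an effect of Rnf8 and any other difference between the cultures, or between the cells they held, cannot be told apart, which holds for every ratio below. In bulk RNA fewer cells of a type and less RNA per cell cannot be told apart either.

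Most of the S100 genes were higher in the null cells. Of the 10 genes 8 passed the 2-fold rule upward on the log2(RPKM + 1) scale, 0 were lower and 2, S100a11 and S100a13, lay within 2-fold. All 10 passed the filter of a mean of 1 RPKM over both libraries. S100a9, S100a14 and S100b were below 1 RPKM in the complemented cells and passed only through the null cells. A call of lower was thus not possible for these genes. Among all 12609 genes past that filter, 14.8% were higher and 15.9% lower by the same rule. Since the genes were chosen with this contrast known, nothing is read from that difference in shares. The median log2 difference, Rnf8-null minus Rnf8-complemented, was 1.60 over the 10 genes and -0.17 over all genes past the filter.

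The summed level of the 10 genes was 7808 RPKM in the null cells and 2982 RPKM in the complemented cells, a ratio of 2.62. They took 0.521% and 0.183% of all counted reads. Without S100a6 the sums were 3563 and 1749 RPKM. The abundant members kept their order. S100a6, S100a11, S100a10 and S100a4 were the highest, in that order, in each library. Below them the order differed, since S100a14 was ranked 5 in the null cells and 8 in the complemented cells, and S100a1 was ranked 7 and 5 among the 10.

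**Figure D1:**
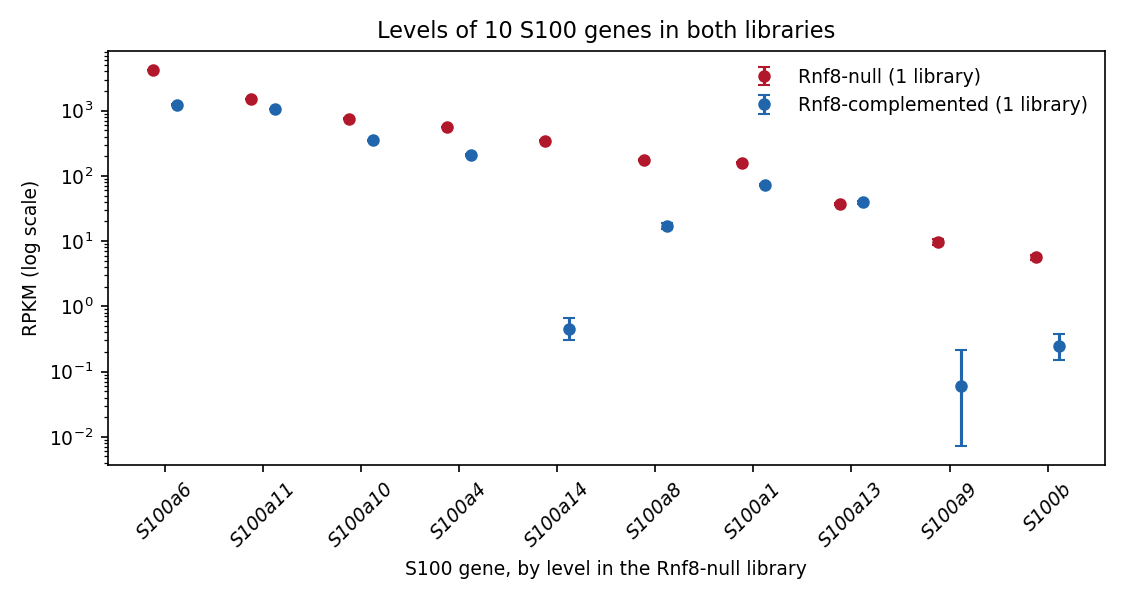
Level of each S100 gene in RPKM (log axis) in the null cells (red) and the complemented cells (blue), 1 library each, with exact 95% counting limits as bars. S100a6 is highest in both libraries at 4245 and 1234 RPKM, and S100a14, S100a9 and S100b drop below 1 RPKM in the complemented cells only.

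S100a14 showed the widest gap of the 10 genes. It encodes an S100 protein of epithelial cells with weak calcium binding, and lies on chromosome 3 from 90526856 to 90528837 of GRCm38, on the plus strand. S100a14 had 24000 reads (344 RPKM, 340.04 to 349) in the null cells and 27 reads (0.456 RPKM, 0.301 to 0.664) in the complemented cells. The gene was thus among the abundant transcripts of the null cells and close to silent in the complemented cells. The ratio was 755 (interval 518 to 1145) and the log2 difference 7.89, a size that 0.103% of all genes past the filter reached or passed. The 8 epithelial markers, with a median log2 difference of 8.24, were higher in the same library.

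S100a8 and S100a9 encode the subunits of calprotectin, a metal-binding antimicrobial complex of neutrophils and inflamed epithelia. S100a8 (chromosome 3, 90668978 to 90670035, plus strand) had 3921 reads, or 175 RPKM (169 to 180.2), in the null cells and 325 reads, or 17.1 RPKM (15.3 to 19.0), in the complemented cells. S100a9 (chromosome 3, 90692632 to 90695721, minus strand) had 376 reads, or 9.57 RPKM (8.63 to 10.6), in the first and 2 reads, or 0.0600 RPKM (0.00726 to 0.217), in the second. Both subunits were therefore higher in the null cells, but S100a9 was the scarcer partner in each. The ratios were 10.2 (9.14 to 11.5) for S100a8 and 160 (43.9 to 1323) for S100a9, the latter resting on 2 reads in the lower library. Per length, S100a8 exceeded S100a9 by 18.2 times in the null cells.

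Because neutrophils carry both subunits, markers of neutrophils and other myeloid cells were read beside them. Of 21 listed markers 20 were in the table, 3 passed the filter, 1 was higher in the null cells, 1 lower and 1 within 2-fold. Among all genes past the filter 14.8% were higher and 15.9% lower. The defining granule genes Ngp, Ctsg and Mmp8 had 0 reads in both libraries, and Elane and Mpo had 1 read in the null and 0 in the complemented cells. The granule gene Prtn3 had 39 reads against 0, in the direction of S100a8 and S100a9, while the myeloid genes Lyz2 and Fcgr3 went the other way with 3 against 75 and 13 against 144 reads. Prtn3, Lyz2 and Fcgr3 were below the filter. The pan-leukocyte gene Ptprc had 0 and 1 reads. Summed over the list the level was 23.7 RPKM in the null and 15.2 RPKM in the complemented cells, most of it from Cd68, a lysosomal gene, at 16.7 and 9.33 RPKM. Itgb2, an integrin chain of leukocytes, stood at 5.13 and 0.417 RPKM, and Camp, an antimicrobial peptide gene, at 0.117 and 1.96 RPKM.

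S100b is best known from glia, Schwann cells and melanocytes, where its protein binds p53 among other targets. It lies apart from the other genes on chromosome 10, from 76253853 to 76261159, on the plus strand. S100b had 541 reads (5.69 RPKM, 5.22 to 6.19) in the null cells and 20 reads (0.248 RPKM, 0.151 to 0.383) in the complemented cells. It was low in each library beside the other members, and the ratio was 23.0 (14.7 to 37.9). Of 15 Schwann, glial and melanocyte markers 5 passed the filter, with 2 higher and 3 lower in the null cells. All genes past the filter had shares of 14.8% higher and 15.9% lower. Sox10, a regulator of those lineages that mammary progenitors also use, had 9049 reads against 1, and Mbp, a myelin gene, stood at 7.37 and 1.16 RPKM. Pmp22, a myelin protein also made by fibroblasts, went the other way at 0.339 and 146 RPKM, as did Mitf (0.263 and 6.93) and Gap43 (0.107 and 2.34 RPKM). The myelin gene Mag had 5 and 0 reads, Foxd3 had 0 and 4, and Tyrp1 had 1 and 0. Summed over the 15 markers the level was 67.8 RPKM in the null and 159 RPKM in the complemented cells.

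S100a6, S100a4, S100a1 and S100a10 were abundant in each library and between 2-fold and 4-fold higher in the null cells. S100a6 (calcyclin; chromosome 3, 90612882 to 90624181, plus strand) stood at 4245 RPKM (4225 to 4265, 174771 reads) and 1234 RPKM (1222 to 1245, 43114 reads). This put it at rank 15 of 23562 genes in the null cells and at rank 80 in the complemented cells, with a ratio of 3.44 (3.40 to 3.48). S100a4, which binds the non-muscle myosin heavy chain Myh9 and is used as a fibroblast marker, lies on chromosome 3 from 90603771 to 90606045, on the plus strand. It stood at 562 RPKM (16066 reads) and 209 RPKM (5058 reads), a ratio of 2.70 (2.61 to 2.78). S100a4 was therefore higher in the library with the lower sum of mesenchymal and fibroblast markers. Its exons overlap those of Gm42674, an annotated gene that also overlaps exons of S100a3, so their reads cannot be told apart.

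S100a1, known from heart muscle where it acts on the calcium pump and the ryanodine receptor, lies on chromosome 3 from 90511034 to 90514392, on the minus strand. It stood at 159 RPKM (5614 reads) in the null and 73.1 RPKM (2184 reads) in the complemented cells, a ratio of 2.18 (2.08 to 2.29). S100a10 (p11; chromosome 3, 93555080 to 93564643, plus strand) is a member that does not need calcium and joins Anxa2 in a plasminogen-binding complex. It stood at 750.5 RPKM (27933 reads) and 353 RPKM (11148 reads), a ratio of 2.13 (2.08 to 2.17). The ratios of S100a1 and S100a10 did not differ beyond their counting limits, and both genes lay just past the 2-fold line with log2 differences of 1.12 and 1.09.

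S100a11 and S100a13 lay within 2-fold. S100a11, a partner of Anxa1 (chromosome 3, 93520488 to 93526287, plus strand), was abundant in both libraries at 1519.5 RPKM (43854 reads) and 1057 RPKM (25885 reads). The ratio of 1.44 (1.42 to 1.46) made it higher in the null cells by less than the 2-fold rule. A processed pseudogene, S100a11-ps, is annotated on chromosome 12 from 73961142 to 73961447, and reads can be shared with it. S100a13, which takes part in the release of Fgf1 and Il1a (chromosome 3, 90514435 to 90524581, plus strand), stood at 37.1 RPKM (1520 reads) and 39.8 RPKM (1382 reads). It alone had a ratio whose counting interval included 1 (0.934, 0.867 to 1.005), and the sign of its log2 difference turned with the scaling, from -0.13 to 0.13.

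**Figure D2:**
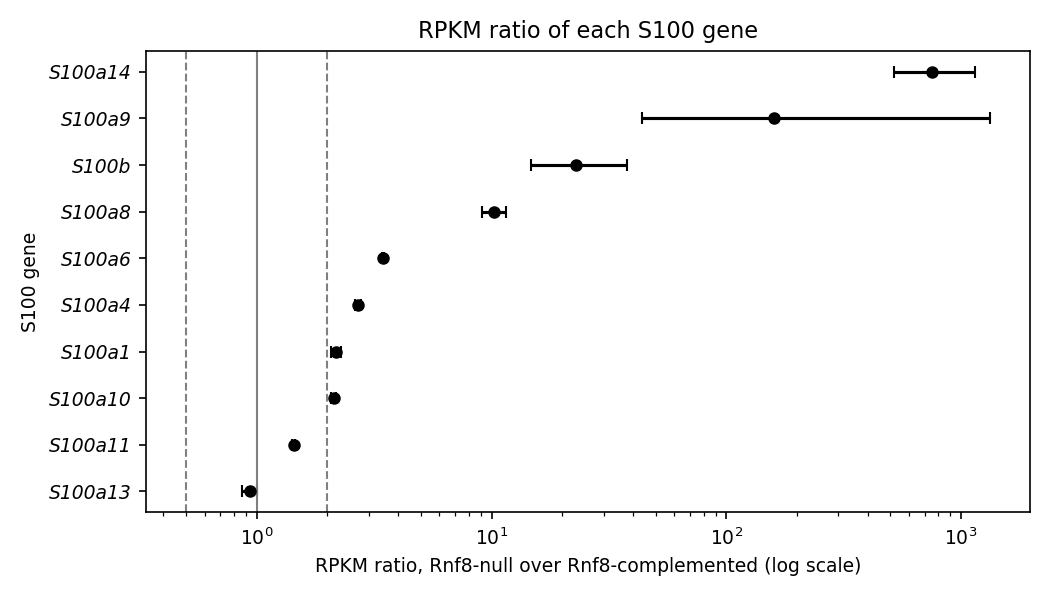
RPKM in the null cells over RPKM in the complemented cells for each S100 gene (log axis), with exact 95% counting limits as bars. The solid line marks a ratio of 1 and the dashed lines the 2-fold limits, and the ratios run from 0.934 for S100a13 to 755 for S100a14.

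The make-up of S100 expression differed between the libraries. S100a6 took 54.4% of the summed RPKM of the 10 genes in the null cells and 41.4% in the complemented cells. S100a11 went the other way, with 19.5% and 35.4%. S100a10 held 9.61% and 11.8%, while the shares of S100a4 were alike at 7.20% and 6.99%. S100a14 and S100a8 contributed 4.41% and 2.24% in the null cells but 0.0153% and 0.572% in the complemented cells. These shares are free of the scaling between libraries, since each is taken within a library.

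**Figure D3:**
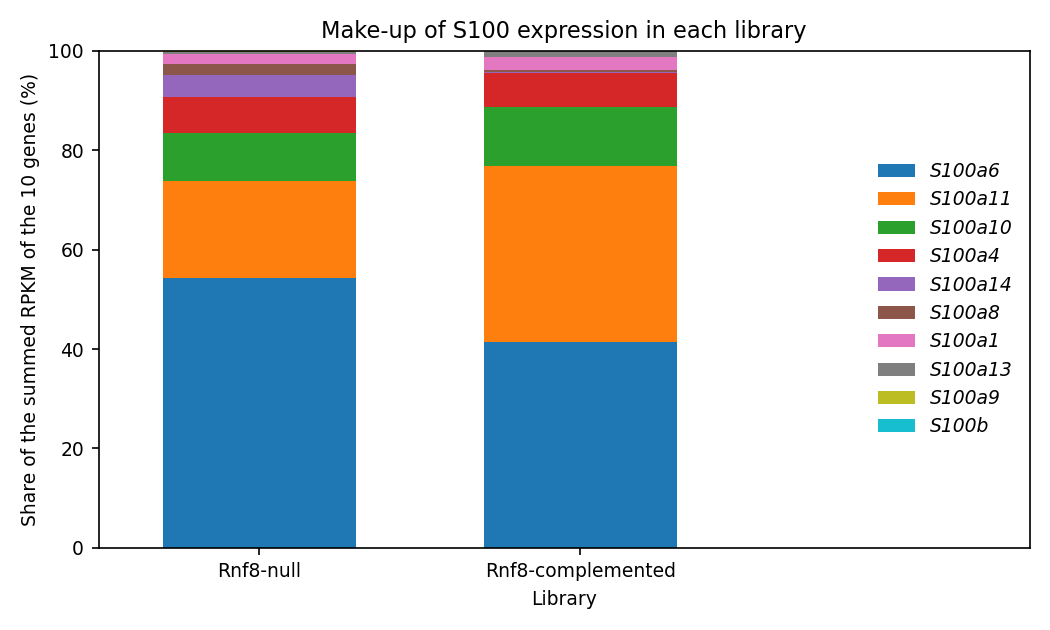
Share of the summed RPKM of the 10 S100 genes (in percent) taken by each gene in the null and the complemented cells. S100a6 and S100a11 hold most of both bars, with S100a6 at 54.4% and 41.4% and S100a11 at 19.5% and 35.4%, and S100a14 is visible in the Rnf8-null bar only.

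Of 10 other S100 genes listed, 8 were in the table and 4 passed the filter, of which 2 were higher in the null cells, 0 lower and 2 within 2-fold. The rule called 14.8% of all genes past the filter higher and 15.9% lower. S100a16, a broadly expressed member, lies 8416 bases from S100a14 and had a log2 difference of 5.82, at 99.5 RPKM (6286 reads) and 0.783 RPKM (42 reads). Its ratio of 127 (93.9 to 176) was smaller than that of S100a14 beyond the counting limits. S100a3, known from hair, stood at 9.93 and 3.81 RPKM, a ratio of 2.60 (2.13 to 3.19), but also overlaps Gm42674. S100a7a, a relative of psoriasin, stood at 7.07 and 3.998 RPKM (ratio 1.77, 1.44 to 2.17).

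Among the 10 members and the other S100 genes listed, S100g, a vitamin D-dependent calcium buffer on chromosome X, had the ratio furthest below 1. It stood at 3.48 and 7.56 RPKM, a ratio of 0.461 (0.374 to 0.566), or -0.93 as a log2(RPKM + 1) difference, short of the 2-fold rule. S100a2 had 23 and 8 reads, S100a5 had 6 and 4, and S100z had 6 and 0. S100a7l2, listed in the table under an older symbol, had 0 reads in each library, and a count of 0 does not show that a gene was silent.

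Most S100 genes lie side by side on chromosome 3, and their differences were not those of a uniform block. S100a1 and S100a13 stand head to head with 42 bases between them, yet their ratios were 2.18 and 0.934. S100a14 starts 2274 bases beyond S100a13. From S100a13 to S100a14 the ratio thus went from 0.934 to 755 between next neighbours. The genes before the cluster, Ilf2, Snapin and Chtop, which serve RNA handling and vesicle fusion, had 3879, 4116 and 6489 reads in the null cells and 6001, 4061 and 8716 in the complemented cells. Their RPKM ratios were 0.549, 0.860 and 0.632. All 3 lay within 2-fold, with somewhat lower levels in the null cells. Beyond S100a9, the peptidoglycan recognition gene Pglyrp4 had 28 reads against 1, and Pglyrp3 stood at 6.94 and 3.86 RPKM. Further on, Lor, a gene of the cornified skin envelope, had 0 reads in each library, and Prr9 had 2 and 34.

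S100a11 and S100a10 form a separate group with 28792 bases between them. Tchh, separated from them by Tchhl1, encodes the hair follicle protein trichohyalin with an S100-like end. Tchh had 2 reads against 4546 (0.00600 and 16.1 RPKM). It was lower in the null cells, while S100a10 was higher and S100a11, which lies nearer to Tchh, was within 2-fold. Of 7 listed fused-type S100 relatives 6 were in the table, and Tchh was the only member past the filter. Hrnr, Rptn and Crnn had 0 reads in both libraries, Tchhl1 had 0 and 33, and Flg2 had 0 and 4. The next genes on the far side, Tdpoz2 and Tdpoz1, had at most 2 reads in either library.

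**Figure D4:**
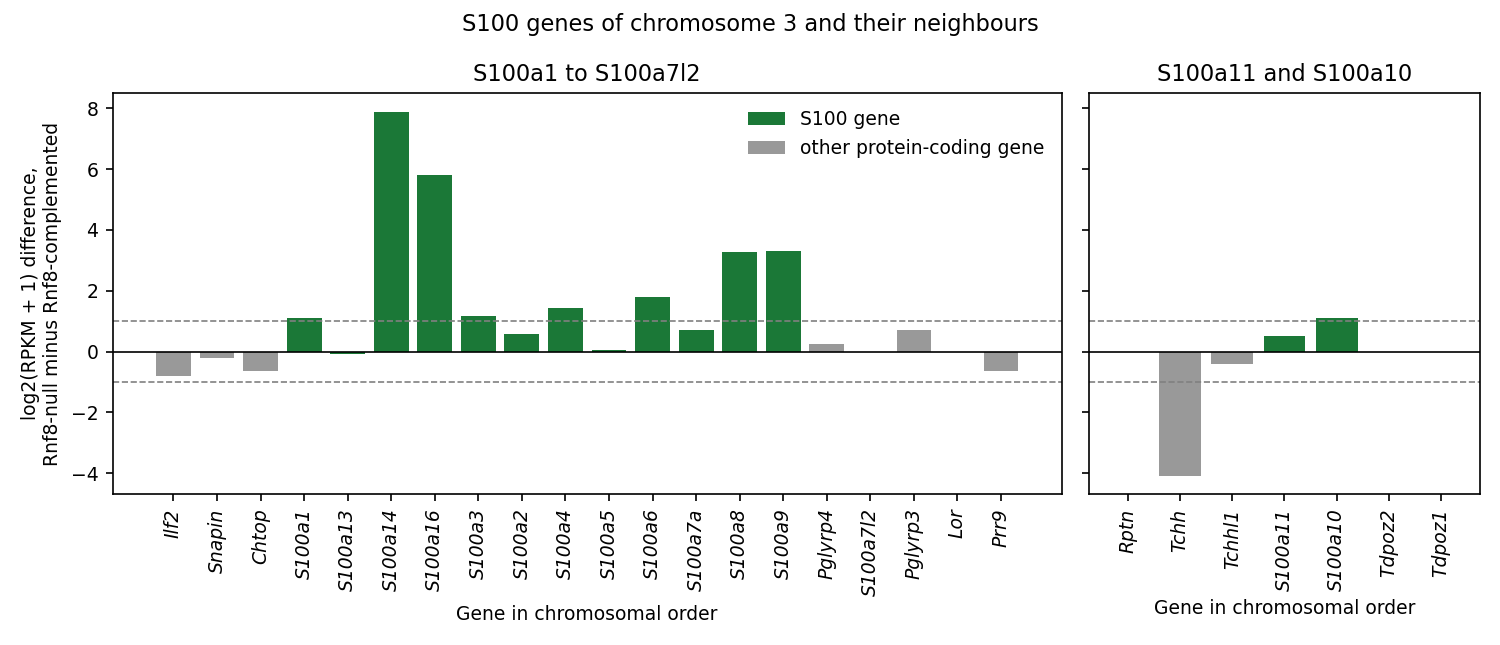
Difference in log2(RPKM + 1), Rnf8-null minus Rnf8-complemented, for the S100 genes of chromosome 3 (green) and neighbouring protein-coding genes in the table (grey), in chromosomal order, with dashed lines at 1 and -1. The S100 genes range from -0.10 (S100a13) to 7.89 (S100a14), and Ilf2, Snapin and Chtop lie between -0.81 and -0.21.

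The stretches before the gene starts show what 4 of these members carry. RefSeq promoter windows (GRCm38.p6, 250 bases before and 50 after the annotated start) were matched for 8 of the 10 genes, and not for S100a10 and S100a14. They are shown for the calprotectin pair, which had ratios of 10.2 and 160, and for S100a4 and S100a11, which hold motif matches and had ratios of 2.70 and 1.44. Each runs in the direction of transcription, up to the first annotated exon or the start, and capitals mark matches to the motifs given next.
S100a8, chr3:90668821-90668977, plus strand: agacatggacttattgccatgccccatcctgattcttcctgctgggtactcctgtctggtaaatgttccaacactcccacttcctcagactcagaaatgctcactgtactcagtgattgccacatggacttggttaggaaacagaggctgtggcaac
S100a9, chr3:90695722-90695971, minus strand: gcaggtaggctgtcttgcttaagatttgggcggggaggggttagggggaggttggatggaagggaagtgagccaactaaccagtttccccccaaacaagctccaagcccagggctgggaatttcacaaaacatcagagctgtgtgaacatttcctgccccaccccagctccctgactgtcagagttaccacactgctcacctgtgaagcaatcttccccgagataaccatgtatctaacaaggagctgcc
S100a4, chr3:90603520-90603769, plus strand: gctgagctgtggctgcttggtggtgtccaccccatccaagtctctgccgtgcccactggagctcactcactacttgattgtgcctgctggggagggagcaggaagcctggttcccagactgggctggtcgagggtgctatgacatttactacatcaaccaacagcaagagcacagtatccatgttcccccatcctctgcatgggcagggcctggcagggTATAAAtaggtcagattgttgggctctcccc
S100a11, chr3:93520246-93520487, plus strand: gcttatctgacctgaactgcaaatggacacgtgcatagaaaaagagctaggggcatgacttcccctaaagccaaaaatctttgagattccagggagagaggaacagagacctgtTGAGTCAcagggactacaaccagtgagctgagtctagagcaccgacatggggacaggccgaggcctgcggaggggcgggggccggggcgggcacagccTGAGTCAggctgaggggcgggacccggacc

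The motifs searched on both strands were TGANTCA (AP-1), TTCNNNGAA (STAT) and TATAAA, the core of the TATA box. The AP-1 letters occurred in 1 of the 8 windows, that of S100a11, starting 136 and 38 bases before the start, and in 7.81% of all 32851 promoter windows. The TATA letters occurred in 3 windows, those of S100a4, S100a8 and S100a9, and in 13.6% of all. In S100a4 and S100a8 they began 31 and 30 bases before the start. In S100a8 that position falls in an exon of another annotation and is not printed, and in S100a9 the match begins at the annotated start itself. The STAT letters occurred in 0 of the 8 windows and in 8.30% of all. S100a1, S100a6, S100a13 and S100b held none of these letters in their windows. A match is a description of the letters only.

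Annexins, the calcium-dependent membrane binders that several S100 proteins grip, were higher in part. Of 12 listed annexins 10 passed the filter, 5 were higher in the null cells by the 2-fold rule, 0 lower and 5 within 2-fold (median log2 difference 1.15, against -0.17 over all genes). By the same rule 14.8% of all genes past the filter were higher and 15.9% lower. Anxa2, the partner of S100a10, stood at 331 and 367 RPKM, a ratio of 0.901 (0.890 to 0.913). The partners thus differed, as S100a10 had 2.27 times the RPKM of Anxa2 in the null cells and 0.960 times in the complemented cells. Anxa1, the partner of S100a11, stood at 1266 and 279.5 RPKM, a ratio of 4.53 (4.46 to 4.60). Here the annexin differed more than the S100 gene, and S100a11 had 1.20 and 3.78 times the RPKM of Anxa1. Anxa11, a partner of S100a6, stood at 42.5 and 6.30 RPKM, Anxa6 at 173 and 49.8 RPKM, and Anxa3 at 321 and 121 RPKM. Anxa8, an annexin of epithelia, stood at 97.2 and 0.554 RPKM, a ratio of 175 (133 to 236). Anxa9 was somewhat lower in the null cells, within 2-fold, at a ratio of 0.665 (0.543 to 0.813). Below the filter, Anxa10 had 0 reads in the null cells against 44, and the least abundant annexin, Anxa13, had 7 and 2 reads.

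S100a10 with Anxa2 binds plasminogen and its activators at the cell surface. Of 7 genes of plasminogen activation 6 passed the filter, 5 were higher in the null cells and 1 was lower (median 2.45). For all genes past the filter the shares were 14.8% higher and 15.9% lower, and the median was -0.17. The activator Plau stood at 175 and 2.74 RPKM, the activator Plat at 30.5 and 4.51 RPKM, and the receptor Plaur at 50.1 and 8.82 RPKM. The inhibitors Serpine2 and Serpinb2 were higher too, the first at 25.2 and 0.0316 RPKM and the other at 2.57 and 0.285 RPKM. Plg, which encodes plasminogen itself, had 0 reads against 1.

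Receptors through which released S100 proteins act showed no common direction. Of 9 listed genes 2 were higher in the null cells, 2 lower and 5 within 2-fold (median 0.17). The shares over all genes past the filter were 14.8% higher and 15.9% lower. Ager was low at 1.61 and 0.908 RPKM, and Tlr4 stood at 4.06 and 3.49 RPKM, a ratio of 1.16 (1.05 to 1.29). Cd14, the co-receptor of Tlr4, was higher at 165 and 12.6 RPKM, and so was Bsg, a receptor of S100a9, the most abundant of the list at 1333 and 549 RPKM. Cd36, a scavenger receptor, was lower with 0 reads against 2117. Mcam, an adhesion receptor, was lower at 6.01 and 170.1 RPKM.

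Intracellular partners lay mostly within 2-fold, as did all genes past the filter (8733 of 12609). Of 16 listed genes 13 passed the filter, with 3 higher in the null cells, 1 lower and 9 within 2-fold (median 0.33). Of all genes past the filter 14.8% were higher and 15.9% lower, so the list was not set apart by these counts. The higher genes were Il1a (301 and 9.27 RPKM), Fgf1 (5.79 and 0.0190 RPKM) and Ahnak (74.8 and 12.7 RPKM). Il1a and Fgf1 are the cytokine and growth factor whose release involves S100a13, a gene that itself differed little. Ahnak is a giant protein that binds S100a10 with Anxa2. Cacybp, the adaptor that binds S100a6, was lower at 34.7 and 77.4 RPKM, a ratio of 0.448 (0.432 to 0.465), but with TMM or median-of-ratios scaling 0 genes of the list were lower. Myh9 stood at 21.6 and 14.8 RPKM, within 2-fold. The S100a1 targets Ryr1 and Ryr2 were below the filter, and Atp2a2, the calcium pump, stood at 56.0 and 104.5 RPKM.

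**Figure D5:**
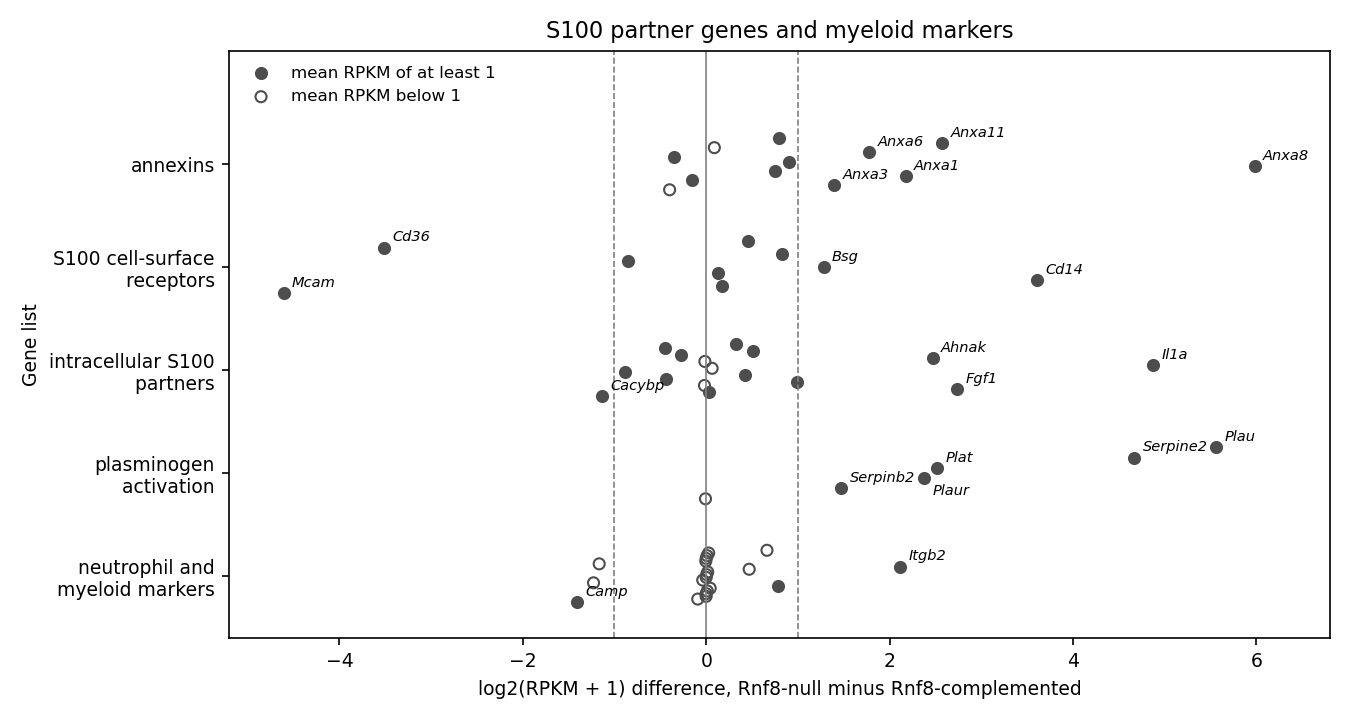
Difference in log2(RPKM + 1), Rnf8-null minus Rnf8-complemented, for genes of 4 S100 partner lists and of the myeloid marker list, 1 point per gene shown, filled where the mean RPKM was at least 1 and open below it, with dashed lines at 1 and -1. Names mark the genes drawn that passed the 2-fold rule (1 gene of the plasminogen list is not drawn), among them 5 annexins to the right and 0 to the left.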

How the data were processed

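RNA sequencing gave values per gene for 2 libraries, 1 per group, grouped by the genotype label and matched to table columns by sample title. Total RNA was purified on columns and made into TruSeq libraries, per the labels' protocols. Per the submitters' processing notes, STAR 2.4.0f1, SAMtools 0.1.18, bedtools and DESeq2 were used with mm10 (GRCm38), with no role given. Which tool counted the reads, on which annotation and with which strand setting, is not stated in the sources, so reads of overlapping genes cannot be told apart. The authors deposited raw counts per gene and RPKM values of the same genes. Each RPKM was the count over the column total and 1 whole-number gene length (largest deviation 1.38e-08 bases), so 0 columns were left out and no low value was imputed.

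Differences were computed as log2(RPKM + 1), Rnf8-null minus Rnf8-complemented, for genes whose mean RPKM reached 1, and called at 1 or -1 (2-fold). Within 2-fold is meant on this scale, where a plain RPKM ratio somewhat past 2-fold can fall short of the rule. With 1 library per group no test was possible. Intervals were exact Poisson limits on counts and exact conditional binomial (Clopper-Pearson) limits on ratios (scipy 1.17.1), both at 95%. PCR copies were not marked, so reads may not be independent and the limits cover counting error only. At these depths 3 reads on 500 bases correspond to 0.105 and 0.123 RPKM. Alternatives were 2 pseudocounts, 2 filters, 4 scalings (edgeR 4.0.16 and DESeq2 1.42.0 in R 4.3.3) and 2 fold rules. Calls and limits were tested on simulated data with counting error only, which hold no spread between cultures and no PCR copies. Members, lists and rules were chosen with earlier results of these data known. An NF-kB motif that was also searched is not reported. The genes named are all members and other S100 genes, the list members past the 2-fold rule (at most 6 per list), the most and least abundant of each list, the best known partners, and the chromosomal neighbours in the table. The epithelial and mesenchymal lists are summarised, with some mesenchymal markers named. Elane, Mpo, Prtn3, Lyz2, Fcgr3, Ptprc, Anxa9, Anxa10, Vim, Sparc, Col1a2, Pdgfra, Thy1, Mag, Foxd3, Atp2a2 and Calm3 were named after their values were seen. Some listed genes enter the counts, medians and sums of their lists but are not reported here by name. Protein sequences were not analysed here. Positions are from GENCODE vM21 on GRCm38, and 2 listed genes were matched through RefSeq synonyms.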

Additional observations from a re-analysis of the deposited data

How the results depend on the processing

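Of the 10 S100 genes, 8 were higher and 0 lower in the null cells under both other pseudocounts, all 4 scalings, the 1.5-fold rule and no filter. The number higher was 6 when genes had to reach a mean RPKM of 5, which removes S100a9 and S100b, and 4 with a 4-fold rule, by construction. The share higher among all genes tested moved as well, from 14.8% as reported. It was 13.9% at a mean RPKM of 5, 7.77% with the 4-fold and 21% with the 1.5-fold rule. Without a filter it was 8.57%, and with pseudocounts of 0.1 and 5 RPKM 16.3% and 9.66%. The 4 scalings gave 17.1% (TMM), 17.3% (median-of-ratios), 15.9% (upper-quartile) and 14.4% (without the 10 genes with most reads). The median log2 difference of the S100 genes, 1.60 as reported, was 1.83 with TMM, 1.84 with median-of-ratios factors, 1.72 with upper-quartile factors and 1.57 with the total taken without the 10 genes with most reads. It was 1.24 with a pseudocount of 5 RPKM and 1.27 when the mean RPKM had to reach 5. TMM, median-of-ratios and upper-quartile scaling moved the median of all genes by 0.20, 0.21 and 0.10. With median-of-ratios scaling 2183 genes were higher and 1556 lower, against 1866 and 2010 as reported. The log2 difference of S100a9 ran from 1.53 to 5.92 and that of S100b from 1.03 to 4.06, both between pseudocounts of 5 and 0.1 RPKM. Over all partner and marker lists 31 genes were higher, 8 of them the epithelial markers, and 16 lower, 5 of them mesenchymal markers. The number lower was 26 with a 1.5-fold rule and 10 with a 4-fold rule. Of all genes past the filter 14.8% were higher and 15.9% lower as reported. The share lower was 29.4% with a 1.5-fold rule and 5.05% with a 4-fold rule. Depth limits S100a9 most, since 2 reads in the complemented cells leave its ratio between 43.9 and 1323. No paired analysis was possible because each group had 1 library.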

Other observations

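Calcium-binding proteins of the same EF-hand fold outside the S100 family lay mostly within 2-fold, as did genes past the filter (8733 of 12609). Of 24 listed sensors and buffers 20 passed the filter, with 3 higher in the null cells, 2 lower and 15 within 2-fold. Shares over all genes past the filter were 14.8% higher and 15.9% lower, so these counts did not set the list apart. The median log2 difference of the list was 0.13, against -0.17 for all genes past the filter. It was 1.60 for the S100 genes, which were chosen on this contrast. The calmodulin genes Calm2 and Calm3, which encode the same protein, stood at 160.2 and 146 RPKM in the null cells and at 317 and 124 RPKM in the complemented cells. Both lay within 2-fold, and Calm2 was close to the line with a ratio of 0.506 (0.494 to 0.518). The higher genes were Hpcal1, a neuronal calcium sensor relative (51.8 and 10.3 RPKM), Efhd2, an actin-binding EF-hand protein (52.9 and 14.6 RPKM), and Nucb2 (44.1 and 21.5 RPKM), the last just past the line at 1.004. The lower genes were the calcium-binding proteins of the secretory pathway Rcn1, with 2 reads against 2708, and Rcn3 (0.0931 and 2.86 RPKM). The least abundant of the list, Calml3, had 2 reads against 0. With TMM or median-of-ratios scaling 6 of the list were higher and 2 lower, and with the total taken without the 10 genes with most reads 2 were higher and 4 lower. With a mean RPKM of at least 5 required, 3 were higher and 1 lower.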
